A study of Mus musculus with 10 samples.

Results

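The genes described here are the receptors for the Fc part of IgG in the mouse, with the signalling chain that 3 of them share: Fcgr1, Fcgr2b, Fcgr3, Fcgr4, Fcer1g and Fcgrt. They were chosen by name as a gene family. All 6 are among the 24538 genes of the count files, and all 6 passed the expression filter (a mean of at least 1 FPKM, the number of fragments scaled to transcript length and library size, in either group) that left 11571 genes for testing. The libraries came from 2 populations of sorted macrophages, with 5 libraries in each. Metastasis-associated macrophages (MAMs) were CD11B+ CD11C- cells from dissected lung metastases of wild type C57BL6/J females of 8 to 10 weeks that had received E0771-LG cells, a mouse mammary tumour line, through the tail vein. Each MAM library held metastases of 2 to 4 mice. Resident alveolar macrophages (RAMs) were CD11C+ CD11B- cells from normal lungs of wild type mice of the same age, each library from an individual mouse per the study's methods. Both populations also passed a gate for CD45+, F4/80+, LY6C-, MRC1+ and high forward scatter. Tissue (metastasis or normal lung) and sorted population therefore differ together, and their parts in any difference cannot be told apart. All lungs were digested in the presence of transcription inhibitors, and the cells of both groups were blocked with an antibody against CD16 and CD32, the proteins made from Fcgr3 and Fcgr2b, before staining.

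Fc gamma receptors bind the constant part of IgG and let a macrophage respond to antibody-coated cells, particles and immune complexes. The activating receptors Fcgr1 (CD64, of high affinity), Fcgr3 (CD16) and Fcgr4 reach the surface and signal through the common gamma chain made from Fcer1g, whose tyrosine motif is phosphorylated by Src family kinases and then binds the kinase Syk. Fcgr2b (CD32b) carries an inhibitory motif of its own that recruits the lipid phosphatase SHIP1, made from Inpp5d. Fcgrt encodes the heavy chain of the neonatal Fc receptor, which pairs with beta-2 microglobulin, the product of B2m, and returns IgG and albumin from endosomes to the cell surface. It binds IgG inside the cell and is no part of the gamma chain pathway.

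On GRCm38 (GENCODE M21), 4 of the 6 genes lie within 276 kb of chromosome 1. These are Fcgr2b (chr1:170958617-170976547, minus strand), Fcgr4 (chr1:171018920-171029761, plus strand), Fcgr3 (chr1:171051174-171064935, minus strand) and Fcer1g (chr1:171229572-171234365, minus strand). Fcgr1 is at chr3:96282909-96293969 and Fcgrt at chr7:45092990-45103851, both on the minus strand. Exons of Fcgr2b overlap those of the antisense gene Gm38204, and the strand setting of the counting is not given in the sources used here. Fcgr2b and Fcgr3 are close paralogs. Their longest transcripts share an identical run of 129 bases, and 12.8% of all 50-base windows of Fcgr3 and 4.75% of those of Fcgr2b occur in both. At 100 bases, the length of a read, the shares were 3.53% and 1.28%. The study's methods state that only uniquely mapped reads were counted. Reads that lie wholly in such stretches can be missing from both counts, unless the other read of the pair places them. The shares above are for single reads, so the loss was not measured, and the values of these paralogs are uncertain to an unknown extent. No other pair among the 6 genes shared a 50-base window.

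The sequences before the start sites of Fcgr1, Fcgr4 and Fcgr3 are shown because they hold short strings bound by factors known to act in macrophages. RefSeq windows from 250 bases before to 50 after the start (GRCm38.p6) were found for all 6 genes, 7 windows in all, since 2 starts are listed for Fcgr3. The windows of Fcgr3 and Fcgr2b do not reach the 5′ ends of these genes in GENCODE, so their outermost starts were not searched. They were searched on both strands for the string TTCNNNGAA (GAS, bound by STAT dimers), the string GAAA followed by any 2 bases and GAAA again (ISRE, bound by interferon regulatory factors) and GAGGAA (bound by PU.1, a factor of the myeloid lineage). The GAS and ISRE strings were present in 8.30% and 3.44% of the 32851 windows of the table, and the PU.1 string in 28.3%. Each line gives the 150 bases that end just before the start, 5′ to 3′ on the strand of the gene, with matches in capitals (chr3:96293970-96294119 for Fcgr1, chr1:171018776-171018925 for Fcgr4 and chr1:171059404-171059553 for the first start of Fcgr3).
Fcgr1: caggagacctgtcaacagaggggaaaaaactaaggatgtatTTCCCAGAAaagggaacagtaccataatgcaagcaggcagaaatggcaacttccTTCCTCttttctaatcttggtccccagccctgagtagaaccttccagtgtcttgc
Fcgr4: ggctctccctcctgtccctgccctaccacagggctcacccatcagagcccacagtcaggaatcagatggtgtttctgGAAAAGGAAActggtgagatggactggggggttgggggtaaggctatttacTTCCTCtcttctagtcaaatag
Fcgr3: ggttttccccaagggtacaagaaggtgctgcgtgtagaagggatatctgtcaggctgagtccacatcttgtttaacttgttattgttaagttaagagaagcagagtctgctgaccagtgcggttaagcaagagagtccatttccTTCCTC
The Fcgr1 window held a GAS string 109 bases before the start and a PU.1 string 55 bases before it, read on the opposite strand as TTCCTC. The Fcgr4 window held an ISRE string 73 bases before the start and a PU.1 string 22 bases before it. The Fcgr3 windows held only the PU.1 string, 6 bases before the first start. No match was found in the windows of Fcgr2b, Fcer1g and Fcgrt. Such matches describe the letters only, since binding was not measured in these libraries.

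Between 55391447 and 87523247 reads per MAM library and between 50746305 and 72150650 per RAM library were assigned to genes. The genes for the sorting proteins followed the gate in CPM (read counts scaled to a common library size with TMM factors): Itgam (CD11B) averaged 6270 in MAMs and 64.3 in RAMs, and Itgax (CD11C) averaged 171 and 991. Of 10 alveolar macrophage markers, 9 fell in MAMs and Marco did not pass the test, and their summed level was 265 to 562 CPM in MAMs and 9959 to 12757 CPM in RAMs. All 10 markers of monocyte-derived macrophages rose, with summed levels of 7594 to 9493 CPM and 390 to 563 CPM. Among the 85 genes above 1000 CPM in MAMs, the lowest level in RAMs was 1.06% of the level in MAMs, and among the 64 genes above 1000 CPM in RAMs the lowest level in MAMs was 0.992%. With TMM factors, each of the 6 receptor genes stood, in its lower group, at 9.82% or more of its higher group, above these lowest shares. The part of RNA from the other population in the lower levels was not tested.

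All 6 genes differed between MAMs and RAMs at an adjusted p below 0.05 (edgeR quasi-likelihood test, Benjamini-Hochberg over all 11571 genes). The 4 Fc gamma receptors and Fcer1g, 5 of 6 genes, rose in MAMs, and Fcgrt fell. Of all tested genes 56.2% passed in either direction, 28.9% as higher and 27.3% as lower. Over 2-fold, 3 receptor genes were higher (Fcgr1, Fcgr4 and Fcgr2b) and 1 was lower (Fcgrt), against 15.3% and 15.1% of all genes. The 5 MAM and the 5 RAM libraries did not overlap for any of the 6 genes, which was also so for 44.9% of all genes. The median log2 fold change was 1.27 over the 6 genes and -0.015 over all tested genes. In bulk libraries such as these, fewer cells with a transcript and less of it per cell cannot be told apart. For each of the 6 genes, an exact two-sided permutation test on CPM gave p = 0.00794, the smallest that 5 against 5 libraries allow.

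**Figure D1:**
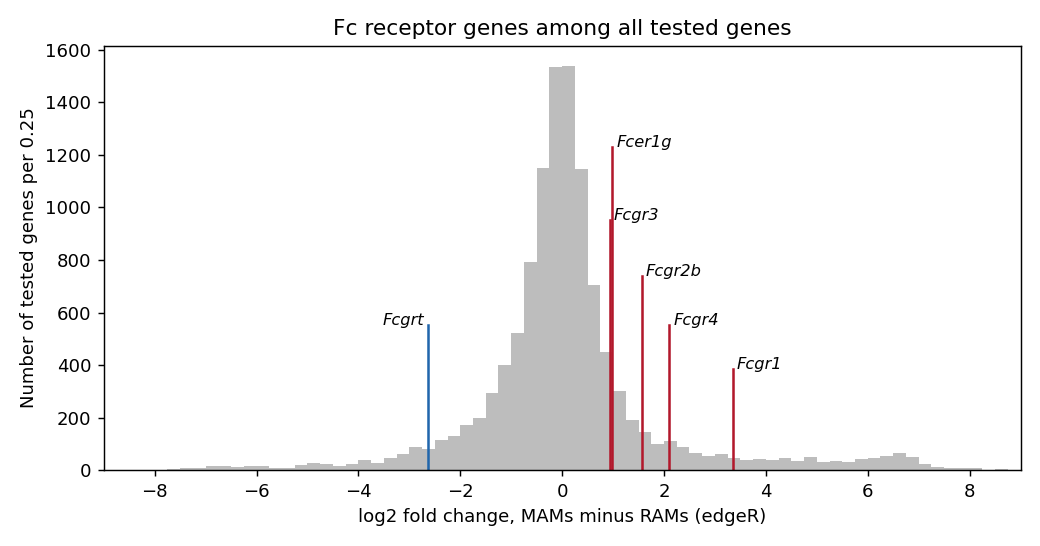
Histogram of log2 fold changes (MAMs minus RAMs, x axis) over the 11571 tested genes, with the number of genes per bin of 0.25 on the y axis and a vertical line at each Fc receptor gene (line heights only separate the names). Fcgr1 at 3.35 and Fcgrt at -2.64 lie farthest from 0, and Fcgr3 and Fcer1g lie side by side at 0.94 and 0.98.

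Fcgr1, the high-affinity receptor, showed the largest rise of the 6 genes. Its level was 446, 522, 613, 679 and 604 CPM in MAM replicates 1 to 5, and 59.9, 47.9, 55.2, 52.3 and 66.1 CPM in RAM replicates 1 to 5. The lowest MAM library stood 6.75 times above the highest RAM library. The mean was 573 ± 90.3 CPM in MAMs and 56.3 ± 7.04 CPM in RAMs (SD, n = 5 each), a 10.2-fold rise (log2 fold change 3.35, SE 0.124, edgeR adjusted p = 6.2e-12). Of all tested genes, 93.9% had a smaller log2 fold change.

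Fcgr4, an activating receptor for complexed IgG, rose 4.28-fold. It was measured at 343, 268, 235, 210.3 and 206 CPM in MAM replicates 1 to 5 and at 44.0, 56.3, 57.4, 65.0 and 72.1 CPM in RAM replicates 1 to 5. All MAM libraries were above all RAM libraries, by 2.86 times at the closest pair. The means were 253 ± 56.2 and 59.0 ± 10.5 CPM (SD, n = 5), with a log2 fold change of 2.10 (SE 0.155, edgeR adjusted p = 1.6e-08). Fcgr4 varied most among the MAM libraries of the 6 genes, with a coefficient of variation of 22.2%.

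Fcgr3, the activating receptor of low affinity, rose less, by 1.92-fold. The MAM libraries held 332, 328, 250.4, 280 and 271 CPM and the RAM libraries 143, 132, 149, 160.3 and 178 CPM, in order of replicate number. The groups did not overlap, but the closest libraries were only 1.41 times apart. The log2 fold change was 0.94 (SE 0.101, edgeR adjusted p = 1.2e-06), between means of 292 ± 36.3 and 152 ± 17.7 CPM. Within the MAMs the activating receptors did not follow one order: replicates 1 and 2 had the highest Fcgr3 and Fcgr4 and the lowest Fcgr1.

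Fcgr2b, the inhibitory receptor, rose 2.95-fold. Its MAM libraries lay close together at 204, 218, 218, 220 and 221 CPM, and its RAM libraries were at 75.8, 57.3, 72.2, 74.6 and 86.1 CPM. With a coefficient of variation of 3.27% in MAMs it was the most even of the 6 genes there, while in RAMs it varied by 14.2%. The means of 216 ± 7.07 and 73.2 ± 10.4 CPM gave a log2 fold change of 1.56 (SE 0.0976, edgeR adjusted p = 2.5e-09). The rise of the inhibitory receptor lay between those of the activating receptors, above Fcgr3 and below Fcgr4 and Fcgr1.

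**Figure D2:**
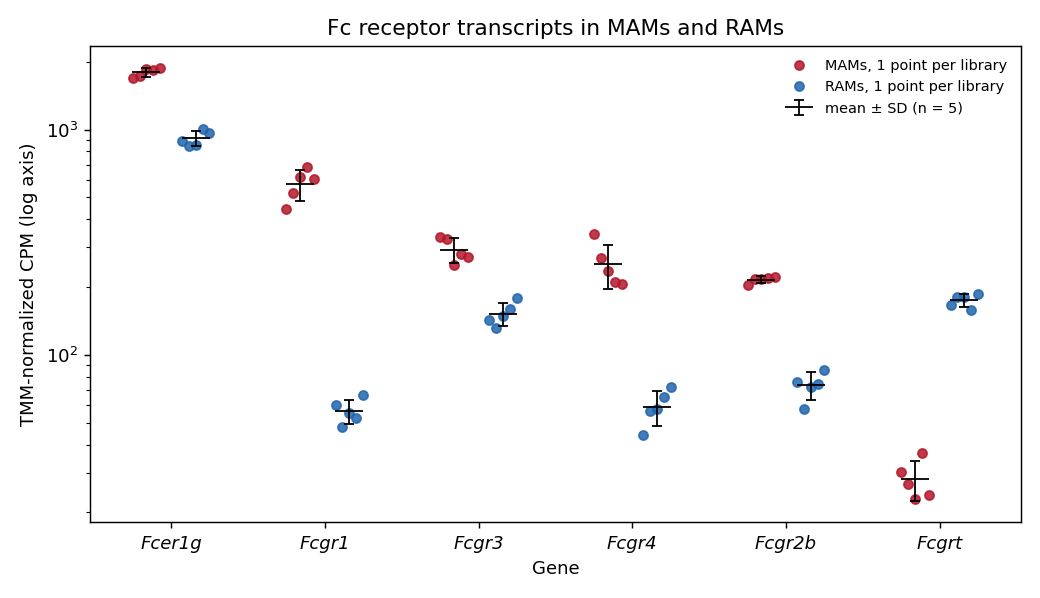
TMM-normalized CPM (log axis) of the 6 Fc receptor genes, with 1 point per library in replicate order from left to right, MAMs in red, RAMs in blue, and bars for the mean ± SD of 5 libraries. The groups are apart for every gene, with MAMs above RAMs for all but Fcgrt (28.1 against 175 CPM).

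Because these receptors bind the same ligand and signal in opposite directions, their make-up was also described per library from the FPKM values, which are scaled by transcript length. The summed FPKM of Fcgr1, Fcgr2b, Fcgr3 and Fcgr4 was 813 ± 35.1 in MAMs and 254 ± 32.4 in RAMs (SD, n = 5). In RAMs, Fcgr3 alone made up 51.0% ± 0.630 of this sum, with Fcgr2b at 19.9% ± 0.916, Fcgr4 at 19.8% ± 2.05 and Fcgr1 at 9.26% ± 0.933. In MAMs the sum was spread more evenly, over Fcgr3 (28.7% ± 2.41), Fcgr1 (28.5% ± 5.26), Fcgr4 (25.9% ± 4.72) and Fcgr2b (16.9% ± 1.47). The shares of Fcgr1 and Fcgr3 did not overlap between groups, and those of Fcgr4 did (21.5% to 33.2% in MAMs, 16.4% to 21.5% in RAMs). The share of the inhibitory Fcgr2b was 14.8% to 18.3% in MAMs and 18.8% to 21.3% in RAMs, and the activating receptors together stood at 4.94 ± 0.541 times Fcgr2b in MAMs and 4.03 ± 0.227 times in RAMs. The level of Fcgr2b, and with it these ratios, depends on the transcript length assigned to it. With counts per base of all exons the ratios were 15.9 and 12.5 and the groups did not overlap, and with counts per base of the longest transcript they were 10.5 and 8.86 and the groups overlapped. No test was run on these ratios.

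**Figure D3:**
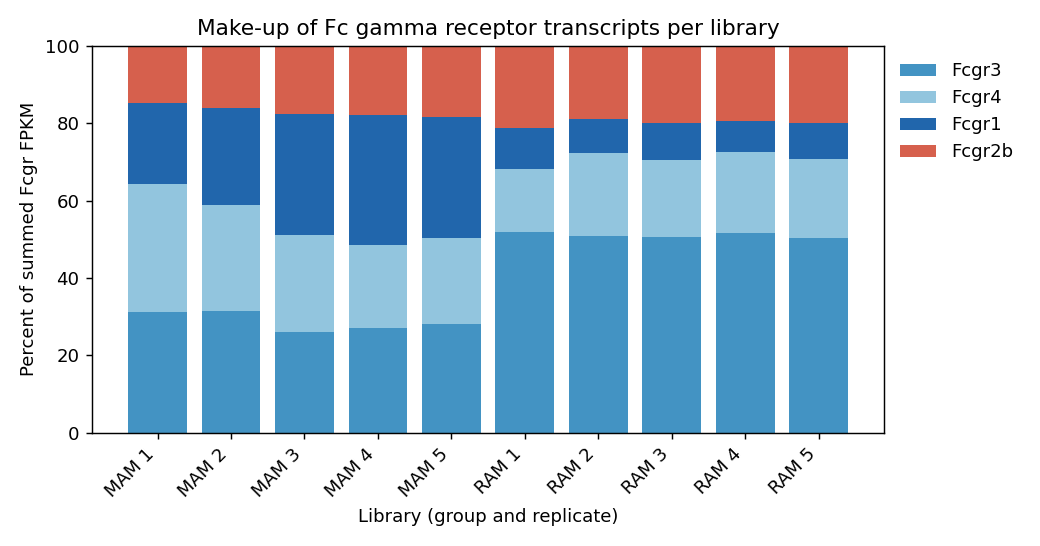
Share of each receptor in the summed FPKM of Fcgr1, Fcgr2b, Fcgr3 and Fcgr4 (percent, y axis) in each of the 10 libraries (x axis), stacked to 100. Fcgr3 takes 50.4% to 51.8% in RAMs and 26.0% to 31.4% in MAMs, while Fcgr1 takes 8.00% to 10.5% and 20.8% to 33.5%.

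Fcer1g, the common gamma chain, had the highest FPKM of the 6 genes in both groups and rose 1.97-fold in MAMs. The MAM libraries were at 1704, 1724, 1865, 1839 and 1881 CPM, and the RAM libraries at 895, 845, 855, 1004 and 970.0 CPM. Both groups were tight, with coefficients of variation of 4.59% and 7.68%, and the closest libraries were 1.70 times apart. The log2 fold change was 0.98 (SE 0.0670, edgeR adjusted p = 6.9e-09), between means of 1802 ± 82.8 and 914 ± 70.2 CPM. Relative to the receptors that use it, Fcer1g was lower in MAMs. Its FPKM was 5.80 ± 0.559 times the summed FPKM of Fcgr1, Fcgr3 and Fcgr4 in MAMs and 10.1 ± 0.755 times in RAMs, and these groups did not overlap. With counts per base of all exons the values were 3.51 and 6.72, again without overlap. Fcgr3 and Fcer1g, which stayed just below 2-fold, also had the smallest root mean square difference of log2 CPM among the 6 genes (0.168 after centring over the 10 libraries). Their similar step between the groups enters this value. Within the MAMs they did not move together: replicates 1 and 2 had the highest Fcgr3 (332 and 328 CPM) and the lowest Fcer1g (1704 and 1724 CPM). In RAMs, replicates 4 and 5 were the highest for both genes.

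Fcgrt, the heavy chain of the neonatal Fc receptor, went the other way and fell 6.21-fold in MAMs. It was at 30.1, 26.8, 23.0, 36.7 and 23.9 CPM in MAM replicates 1 to 5 and at 167, 182, 180.0, 158 and 187 CPM in RAM replicates 1 to 5. The lowest RAM library was 4.30 times above the highest MAM library. The means were 28.1 ± 5.55 and 175 ± 12.1 CPM (log2 fold change -2.64, SE 0.127, edgeR adjusted p = 1.2e-10). Its partner B2m, which also serves class I MHC molecules, rose from 1960 ± 176 to 8299 ± 852 CPM (log2 fold change 2.08, SE 0.0826, edgeR adjusted p = 1.3e-11). Per 1000 FPKM of B2m there were 1.70 ± 0.368 FPKM of Fcgrt in MAMs and 45.9 ± 5.26 in RAMs. Replicate 4 of the MAMs stood apart at 2.35, with the other MAM libraries at 1.47 to 1.64. The smallest count behind any value of the 6 genes was 1029 reads, for Fcgrt in a MAM library.

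On the FPKM scale the order of levels differed between the groups. In MAMs, Fcer1g (3899 ± 164 FPKM) was followed by Fcgr3 (234 ± 28.3), Fcgr1 (230 ± 36.6) and Fcgr4 (211 ± 46.2), whose ranges overlapped, then by Fcgr2b (137 ± 7.42) and Fcgrt (18.6 ± 3.32), both apart from their neighbours. In RAMs, Fcer1g (2035 ± 161 FPKM) was followed by Fcgr3 (129 ± 15.9) and Fcgrt (117 ± 8.94), which overlapped, by Fcgr4 (50.5 ± 9.17) and Fcgr2b (50.5 ± 6.72), which overlapped too, and by Fcgr1 (23.4 ± 3.10), apart from the rest. The place of Fcgr1 in RAMs rests on the lengths behind the FPKM values: of the summed receptors it made up 9.26% there against 19.9% for Fcgr2b, but 12.9% against 7.48% with counts per base of all exons and 10.8% against 10.2% with the longest transcript. The tie of Fcgr4 and Fcgr2b in RAMs rests on these lengths too. Fcgr4 made up 27.7% against 7.48% with counts per base of all exons, and 23.1% against 10.2% with the longest transcript. In MAMs the order of Fcgr1, Fcgr3 and Fcgr4 rests on the lengths as well. With counts per base of all exons, Fcgr1 made up 35.5% in MAMs, Fcgr4 31.8%, Fcgr3 26.8% and Fcgr2b 5.96%. With the longest transcript these shares were 31.8%, 28.5%, 30.9% and 8.73%, for the genes in the same order. Among all tested genes, Fcer1g was above 99.6% in both groups, Fcgr1 above 97.4% in MAMs and 75.3% in RAMs, and Fcgrt above 67.3% and 95.9%.

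The genes whose log2 CPM, centred over the 10 libraries, lay closest to each receptor were named by the root mean square difference. For Fcgr1 these were Man1a (0.223), Cep85l (0.230) and Zfp516 (0.231), the widest differences of the 6 sets. Fcgr2b was followed most closely by Ehd4 (0.0608), then by Morc3 (0.110) and Tpm4 (0.122). For Fcgr3 the nearest were Mapkapk2 (0.0822), Psmb2 (0.0894) and Pld4 (0.0906). Fcgr4 was nearest to B2m (0.153), Selenow (0.165) and Parp12 (0.167). For Fcer1g they were Sh3pxd2b (0.0683), Psap (0.0703) and Gna13 (0.0722), and for Fcgrt the nearest was Ppp1r12b (0.156). The step between the groups enters every one of these values.

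Genes that work with or beside the receptors were examined in 6 lists that hold 90 tested genes. Of these, 54 rose and 20 fell at an adjusted p below 0.05, where 28.9% and 27.3% of all tested genes did, and 38.9% also changed over 2-fold (27 higher, 8 lower, against the 15.3% and 15.1% of all tested genes), with a median log2 fold change of 0.43. Another scaling matters for small changes here: with library totals alone the median of all genes moved from -0.015 to -0.24, and 10 of the 74 genes that passed did not pass under every scaling.

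Among 7 tested genes in the list of other Fc receptors and Fc-binding proteins, 5 rose and none fell. The list also holds B2m, the partner of Fcgrt, which is 1 of the 5, and the median of 2.08 is the value of B2m. Fcrls, an Fc receptor-like scavenger molecule, was at 103 CPM in MAMs and 0.918 CPM in RAMs (log2 fold change 6.81). Its RAM level was 0.892% of its MAM level, near the lowest share given above for highly expressed genes. That share was taken on library totals alone, on which the log2 fold change of Fcrls was 6.58. Trim21, a cytosolic receptor for antibody, was at 88.4 and 26.2 CPM (1.75). Fcrl1 (8.22 and 0.798 CPM, 3.37) and Fcrlb (11.4 and 2.61 CPM, 2.13) were low, and the libraries of Fcrlb overlapped between groups. Fcmr, the receptor for IgM (1.38, adjusted p = 0.093), and Fcer2a, the low-affinity receptor for IgE (0.79, adjusted p = 0.25), did not pass the edgeR test, and Fcer1a, the chain that binds IgE on mast cells, had no counts in any library.

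Of 8 tested receptors listed with the gamma chain, 5 rose and 2 fell, with a median of 0.56. The C-type lectins Clec4d (431 and 18.2 CPM, 4.57) and Clec4e (195 and 20.9 CPM, 3.23) rose with Fcer1g. Pilrb1 (2.70) rose as well, although it is known to pair with the adaptor made from Tyrobp rather than with Fcer1g, and Clec7a, which carries a signalling motif of its own, fell (-0.88). Lilra5 fell from 191 CPM in RAMs to 7.49 CPM in MAMs (-4.67), and so the receptors of this list moved in both directions.

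Among kinases and adaptors, 11 of 20 genes rose and 5 fell, with a median of 0.36. Syk, which binds the phosphorylated gamma chain, was at 422 ± 22.5 CPM in MAMs and 489 ± 10.1 CPM in RAMs, a small fall (log2 fold change -0.21, SE 0.0614, edgeR adjusted p = 0.0081). Adaptors of the list ranged widely. Blnk was at 111 CPM in MAMs and 1.74 CPM in RAMs (5.99), and Lat2 at 134 and 4.23 CPM (4.99), while Lat was low in both (0.222 and 4.10 CPM, -4.19). The RAM level of Blnk was 1.57% of that in MAMs with TMM factors, close to the lowest share on library totals. Other adaptors changed by less than 2-fold, among them Grb2 (0.60), Lcp2 (0.43), Sh3bp2 (0.42), Shc1 (-0.82) and Gab2 (-0.87). Src (3.89 and 0.810 CPM, 2.26) was low in both groups.

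Genes of lipid and calcium signalling were split, with 6 of 16 higher and 8 lower and a median of -0.15. Different members of the same family moved in opposite directions. Of the protein kinase C genes, Prkcb rose from 4.86 to 251 CPM (5.70) and Prkca fell (-1.92). Of the inositol trisphosphate receptors, Itpr3 (3.31) and Itpr1 (175 against 45.7 CPM, 1.94) rose and Itpr2 fell from 326 to 91.7 CPM (-1.83). Plcg1 fell (-1.27), and its relative Plcg2 was at 209 and 201 CPM (0.05, edgeR adjusted p = 0.60).

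Of 25 tested genes of actin remodelling and uptake, 18 rose and 3 fell, with a median of 0.37. Marcks, an actin-linked substrate of protein kinase C, was at 377 CPM in MAMs and 3.73 CPM in RAMs (6.66). Its RAM level was 0.991% of that in MAMs with TMM factors, again close to the lowest share on library totals. Myo10, a motor protein linked to phagocytosis, rose (2.92). Among the Vav exchange factors, Vav3 rose from 21.4 to 148 CPM (2.79) and Vav2 fell from 176 to 45.2 CPM (-1.96).

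In the list drawn up as inhibitors of the pathway, 9 of 14 genes rose and 2 fell, with a median of 0.55. The list also holds Ptprc and Ptpn11 (0.63), which can act for as well as against such signalling. Inpp5d, the phosphatase recruited by Fcgr2b, rose from 198 ± 12.3 to 335 ± 23.4 CPM (log2 fold change 0.76, SE 0.0735, edgeR adjusted p = 3.7e-07). Ptpn6 (SHP-1) was at 200.4 ± 26.2 and 202 ± 24.4 CPM (-0.02, SE 0.104, edgeR adjusted p = 0.91). The largest rises were in Ptpn22 (3.75), Dok2 (2.93) and Inppl1 (2.12, the relative of Inpp5d), and the largest fall in Pag1, an adaptor that holds the kinase Csk at the membrane, from 1032 to 151 CPM (-2.77).

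**Figure D4:**
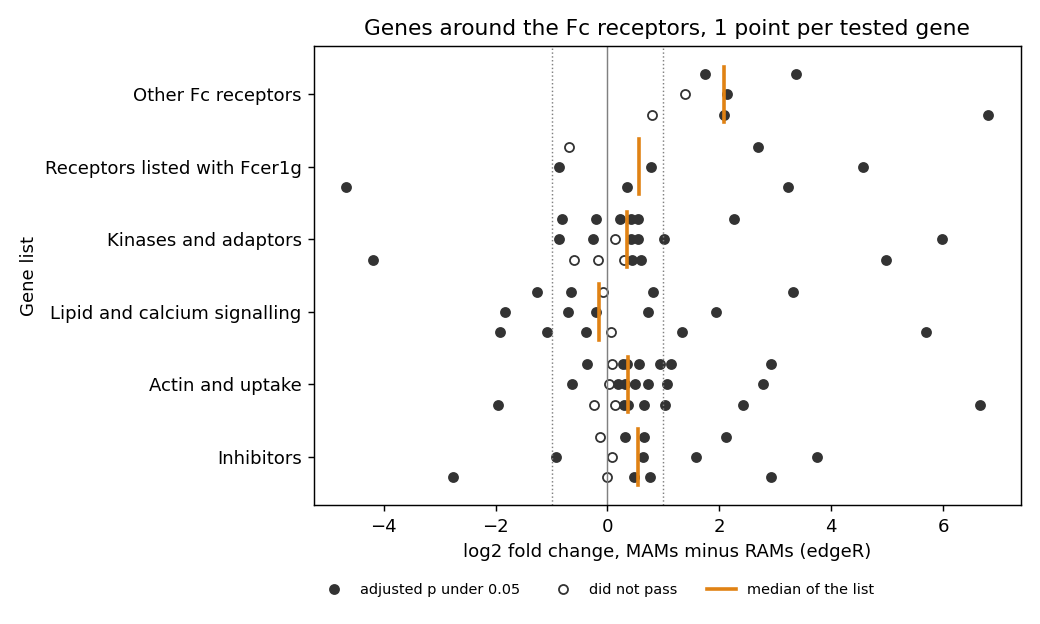
Log2 fold change (MAMs minus RAMs, x axis) of each tested gene in the 6 lists around the Fc receptors (y axis). Filled points passed at an adjusted p below 0.05 and open points did not, the orange bar is the median of the list, and dotted lines mark 2-fold. The medians run from -0.15 (lipid and calcium signalling) to 2.08 (other Fc receptors, a list that also holds B2m, whose value is this median).

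Cells other than macrophages also carry Fc receptors, and their markers were read in the same libraries. Of 10 natural killer cell markers, 2 were tested, and the summed level was 16.6 to 47.0 CPM in MAMs and 10.8 to 16.7 CPM in RAMs. The tested genes went opposite ways, with Klrk1 at 29.0 CPM in MAMs and 0.800 CPM in RAMs (5.20) and Prf1 at 0.287 and 11.3 CPM (-5.28), and Klra8 had no counts in any library. The 10 neutrophil markers summed to 124 to 312 CPM in MAMs and 140 to 204 CPM in RAMs. Of 5 tested, 3 were higher in MAMs: Csf3r (146 and 68.4 CPM, 1.09), S100a8 (4.12 and 1.89 CPM, 1.12) and S100a9 (3.88 and 0.350 CPM, 3.47). Cxcr2 was lower (7.41 and 31.2 CPM, -2.07), and Mmp8 did not pass (42.0 and 58.5 CPM). Ly6g was at 0 in RAMs and at most 66 reads in a MAM library. B cell markers summed to 6.22 to 40.1 and 8.59 to 21.2 CPM, with Cd79a at 2.15 and 3.75 CPM, and none of the 4 tested passed. Mast cell and basophil markers summed to 19.5 to 26.5 and 0.621 to 1.75 CPM, with Hdc at 19.1 and 0.467 CPM and Fcer1a at 0. Dendritic cell markers summed to 14.4 to 29.9 and 22.7 to 34.5 CPM. Clec9a was lower in MAMs (1.01 and 19.4 CPM, -4.26), Batf3 (7.84 and 3.47 CPM, 1.18) and Ccr7 (1.94 and 0.321 CPM, 2.58) were higher, and Siglech was at 0 in MAMs.

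The platelet list summed to 349 to 1048 CPM in MAMs and 9.79 to 17.2 CPM in RAMs, through Pf4 (565 and 6.24 CPM) and Ppbp, which macrophages can also express. Gp1bb reached at most 4 reads in any library and Gp6 was at 0 in RAMs. The study's discussion cites large platelets that gather in lung metastases, and the source of the Pf4 and Ppbp transcripts was not tested. Epithelial markers summed to 17.4 to 26.4 CPM in MAMs and 612 to 736 CPM in RAMs, where Krt19 led (6.09 and 436 CPM), with Cldn4 at 0 in MAMs. Of the 2 macrophage lists, Chil3 was the top alveolar marker in RAMs (105 and 9151 CPM), Marco was at 232 and 368 CPM, and C1qb was the top marker of the monocyte-derived list in MAMs (2233 and 20.4 CPM). Of the genes for the gate, Mrc1 was lower in MAMs (log2 fold change -0.89), Adgre1 was higher (0.37), Ptprc was at -0.14 (edgeR adjusted p = 0.0505), and Ly6c1 (3.78) and Ly6c2 (6.14, 10.5 and 0.143 CPM) were higher from low levels. The part of other cells in the levels of the 6 receptor genes was not tested.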

How the data were processed

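Total RNA of 10 sorted samples (5 MAM, 5 RAM) was amplified with a random and oligo-dT kit and sequenced as paired reads of 100 bases. Per the labels and the submitters' processing notes, the authors used TopHat2 2.0.13, HTSeq 0.6.1 and Cufflinks 2.2.1 with the mm10 build. The deposited counts are whole reads per gene, unnormalized, and the deposited FPKM values are scaled to transcript length and library size. Lines that name no gene held 56.5% ± 1.65 of the counts in MAMs and 63.2% ± 0.898 in RAMs and were left out. The authors' own comparisons were not used.

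Genes with a mean of at least 1 FPKM in either group and with counts were kept (11571). Counts were fitted with edgeR 4.0.16 (R 4.3.3, TMM factors, quasi-likelihood test, Benjamini-Hochberg adjustment over all genes kept), with no covariate. SEs are the log2 fold change divided by the square root of F. Alternatives used DESeq2 1.42.0 and limma 3.58.1. Fits were tested on simulated data. The members and gene lists were chosen with earlier results of these data known. Besides the members, the text names the 3 highest and 3 lowest called genes of each list, all tested Fc receptors, Syk, Inpp5d and Ptpn6, the 3 genes most like each member (for Fcgrt only the nearest, the others are not reported here), the sorting genes and the top gene of each marker list. Plcg2, Gm38204, Clec7a, Dock2, Ptpn11, the adaptors that changed by less than 2-fold and the other members of the marker lists were named after their values were seen. Per the study's methods each sample is an individual mouse or pooled metastases, and p-values measure the spread between these samples. Counting intervals were not computed, and for genes with few reads the counting error can be a large part of that spread. Same-numbered libraries were not treated as pairs (correlations of deviations -0.0366 to 0.0294).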

Additional observations from a re-analysis of the deposited data

Results flagged for a closer look

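In 14 groups of 5 libraries checked with Dixon's test for a sample far from the others, 1 value stood apart, where chance flags about 1 in 20. Fcgr2b in MAM replicate 1 was at 204 CPM, and the other 4 MAM libraries were at 218 to 221 CPM. The gap was 0.818 of the range of the group, above the critical value of 0.710. The difference is small against the distance to the RAM libraries, of which the highest was at 86.1 CPM.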

How the results depend on the processing

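All 6 receptor genes kept their direction and passed at an adjusted p below 0.05 in each of 19 alternative fits (other normalizations, filters and tools, the replicate block and leaving out each library). Leaving out 1 library gave log2 fold changes of 3.28 to 3.43 for Fcgr1, 1.48 to 1.62 for Fcgr2b, 0.88 to 1.00 for Fcgr3, 1.96 to 2.18 for Fcgr4, 0.95 to 1.01 for Fcer1g and -2.75 to -2.57 for Fcgrt, and Fcer1g passed 2-fold without RAM replicate 4. Library totals alone, which move the median of all genes to -0.24, gave the lowest values (3.13, 1.34, 0.71, 1.87, 0.76 and -2.86 in the same order). With the replicate block the values were 3.34, 1.57, 0.94, 2.09, 0.98 and -2.65, and 3526 genes were called against 3511, so no call on these genes changed. Only 2 of 5 MAM libraries correlated best with their own number, and such weak correlations cannot show whether the numbers pair the libraries. Called genes among kinases and adaptors went from 5 to 3 with limma on log2(FPKM + 1), and those of actin and uptake from 8 to 5 with upper-quartile factors and 5 with library totals. Leaving out the 2-fold limit was tried after seeing the data, and 56.2% of all tested genes passed then. The called genes were 16 of 20 (kinases and adaptors), 14 of 16 (lipid and calcium) and 21 of 25 (actin and uptake). They were 11 of 14 (inhibitors), 7 of 8 (receptors listed with Fcer1g) and 5 of 7 (other Fc receptors, unchanged). The share of Fcgr2b in the summed receptors differed by -2.95 percentage points on FPKM, by -1.52 with counts per exonic length and by -1.47 with counts per longest transcript, the last also tried after seeing the data. Dock2 was the only one of the 74 listed genes that passed whose direction turned under another scaling, and that by library totals. Sequences shared by Fcgr2b and Fcgr3, the unknown strand setting and the joint change of tissue and sorted population limit all values.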
